A study of Rattus norvegicus with 23 samples.

Results

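Femora of female Wistar rats with metabolic osteoporosis were compared between rats given PYY3-36, a gut peptide, and rats given saline. The comparison rests on 9 of the 23 bulk RNA libraries of the study, which were chosen by their titles and not by any measured value. The PYY group has 4 libraries (A215, A216, A219 and A220) and the saline group has 5 (A224, A226, A229, A232 and A265), and all genes were described. Both groups carry the same disease model, in which L-NAME and a high-fat diet are combined, L-NAME being a blocker of nitric oxide synthases, so the saline group is not healthy bone. The other 14 libraries are healthy controls (n = 4), model rats given semaglutide (n = 5) and model rats given semaglutide together with PYY3-36 (n = 5). The treatment labels of the 4 PYY libraries end in 4 different numbers, of which 1 reads PYY3-36, so the shared treatment rests on their titles, which name saline beside the peptide. The abbreviation lfd in the titles of both groups is not explained, the labels used here give no age, dose or time, and all libraries carry 1 batch label. Nothing states that each library came from a separate rat, so p-values here cover only the spread among these samples, which may be technical.

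PYY3-36 is made from peptide YY, which cells of the gut release after a meal, and it lowers food intake through the Y2 receptor, encoded by Npy2r. Receptors of the neuropeptide Y family are also known to take part in the control of bone mass. A femur holds bone cells, cartilage and blood-forming marrow, and it is fed by vessels whose lining endothelial cells make nitric oxide. That gas relaxes the mural cells around the vessel, which are pericytes on capillaries and smooth muscle on arteries.

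The libraries held 22.5 to 37.2 M counts with PYY and 26.6 to 32.1 M with saline (M as in counts per M, CPM). Non-mitochondrial counts were 10.1 M ± 4.25 (SD, n = 4) with PYY and 7.26 M ± 2.69 (n = 5) with saline. They were lowest in saline A229 at 4.28 M and A265 at 5.25 M. The TMM scaling factors behind the CPM below ran from 1.18 to 1.53 with PYY and from 0.56 to 1.21 with saline. Mitochondrially encoded genes took 63.6% ± 7.82 (SD, n = 4) of the counts with PYY and 75.3% ± 7.83 (n = 5) with saline (exact permutation test, two-sided, p = 0.0952, adjusted 0.286 over 6 measures of library makeup). Muscle genes took 10.3% ± 5.80 and 13.4% ± 3.45 of the other counts, with a low of 2.41% in PYY A216, and haemoglobin genes took 3.80% ± 2.86 and 5.82% ± 3.69. Over all counts, mitochondrial ones included, these differences had the opposite sign, with muscle genes at 4.08% ± 2.62 and 3.30% ± 1.07 and haemoglobin genes at 1.330% ± 1.079 and 1.328% ± 0.743. None of the 6 measures passed after adjustment, and 4 against 5 libraries cannot give a p below 0.0159. Markers of bone (Col1a1, Acp5), vessels (Pecam1, Acta2), marrow (Alas2, S100a8) and muscle (Acta1) were counted in all 9 libraries, so every sample was a mixture of these tissues. In bulk RNA, fewer cells of a type and less RNA per cell cannot be told apart. Of the pairs of libraries within a group, the closest differed by a chi-square of 78.2 per degree of freedom, so none agreed within sampling noise. PYY A215 differed less from saline A224 (93.9) than from PYY A219 (97.2), which was the closest pair of PYY libraries.

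Vessel-wall, basement membrane and connective tissue genes were mostly higher with PYY, and marrow and ribosomal genes were mostly lower, yet no single gene passed the test. The quasi-likelihood test of edgeR, fitted to all 23 libraries, called 0 of 15271 genes (0% called) at an adjusted p under 0.05. The smallest adjusted p was 0.396. At an unadjusted p under 0.05 stood 740 genes (4.85%), slightly fewer than the 763.55 expected if no gene differed. Of these, 529 (3.46% of all genes) were higher with PYY and 211 (1.38%) were lower, whereas over all genes 49.5% were higher and 50.5% lower. With skeletal muscle genes left out before scaling the split was 614 higher and 139 lower, and with each library's muscle level as a covariate, chosen after seeing the data, it was 687 and 644. Genes whose 4 PYY libraries all lay above the 5 saline libraries numbered 169 (1.11%), and 0.825% of the genes lay below in all 4. The median log2 fold change of all genes was -0.0070, and the median SE of a gene was 0.51, larger than the median size of a change, 0.35. DESeq2 called 5 genes and limma voom called 0. With mitochondrially encoded genes left out before scaling, edgeR likewise called 0.

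**Figure D1:**
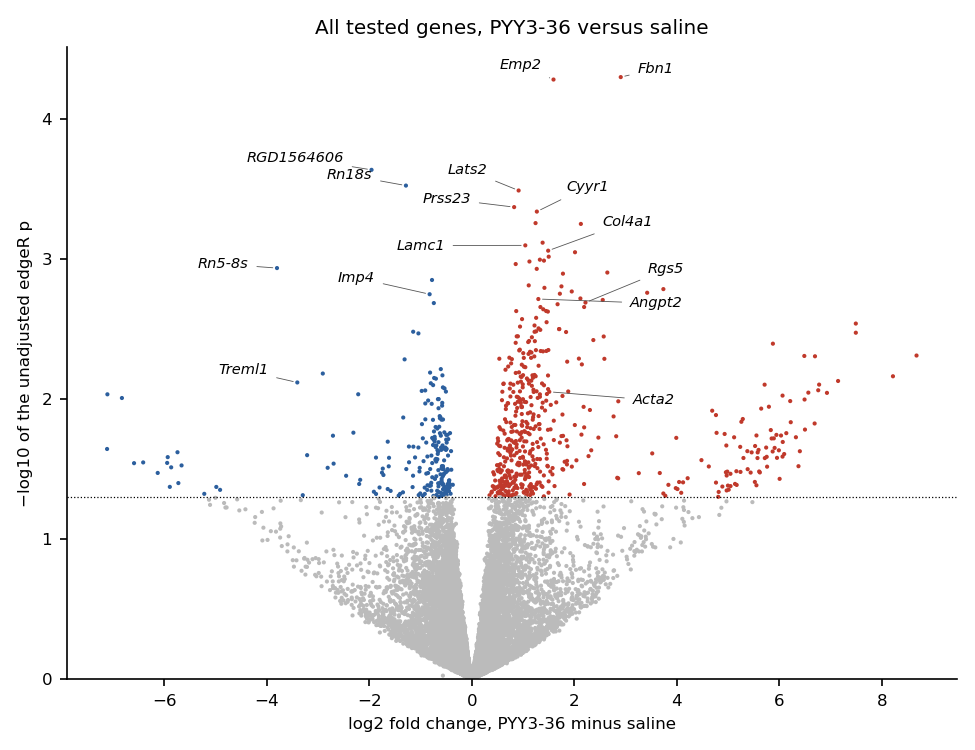
Log2 fold change of PYY minus saline (x axis) against −log10 of the unadjusted p of the edgeR quasi-likelihood test (y axis) for the 15271 genes tested, with a dotted line at the unadjusted threshold. The 529 higher genes (red) outnumber the 211 lower genes (blue) above the line, and Emp2 and Fbn1 stand highest.

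The 4 PYY libraries did not contribute equally to the higher genes. Of the 529, PYY A215 was the highest library of the 9 for 255 genes, A219 for 163, A216 for 65 and A220 for 46. Against the saline mean, their median log2 difference was 1.23 in A215, 1.04 in A219, 0.76 in A216 and only 0.27 in A220. Without PYY A220 the number of genes at an unadjusted p under 0.05 was 1343, and 1 gene, Fbn1, was called (edgeR adjusted p = 0.0176). Without PYY A215 the number was 514.

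The receptor through which PYY3-36 mainly acts was almost uncounted in these femora. Counts of Npy2r were 7 in PYY A216 and 0 elsewhere, where 0 allows up to 3 counts, or 0.0805 to 0.133 CPM of the library total. Npy4r, the receptor of pancreatic polypeptide, had 15 counts in saline A229 and 0 in the others, and Npy5r, Pyy and Ppy had 0 counts in all 9. Such floors cover counting error only. Npy1r, the receptor of neuropeptide Y and full-length peptide YY, was the member of the family counted throughout. Its levels were 17.6, 1.36, 17.1 and 4.52 CPM in PYY A215, A216, A219 and A220, and 3.67, 4.79, 7.02, 1.41 and 4.48 CPM in saline A224, A226, A229, A232 and A265, and all levels below keep this order of libraries. PYY A215 and A219 lay above every saline library and A216 below all of them, so the groups overlapped (log2 fold change 1.25 ± 0.59, SE; edgeR adjusted p 1.00). Npy, the transmitter of sympathetic nerves, had a log2 fold change of -1.30 ± 0.73, and Fap, a protease of activated fibroblasts, one of 0.66 ± 0.50. Dpp4, which cuts peptide YY to PYY3-36, stood at 1.34, 4.88, 2.96 and 0.713 CPM with PYY and at 2.08, 1.80, 3.34, 4.09 and 1.09 CPM with saline, with overlapping groups.

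Mural cell genes were the 1 list of 43 whose mean level lay above all 5 saline libraries in each of the 4 PYY libraries. Of 12 members tested, 11 were higher with PYY and 7 were so at an unadjusted p under 0.05, against 3.46% of all genes. Their median log2 fold change was 1.13, against -0.0070 over all genes. In 3 members, against 1.11% of all genes, the PYY libraries lay above all saline libraries, namely Rgs5, Acta2 and Tagln, the last of which was chosen after its values were seen. Leaving out any 1 library gave list medians between 0.99 and 1.30, and the muscle level as a covariate gave 0.89. All 43 lists were written with earlier results of these data known. The shares of list members given here and below are therefore descriptions and not tests.

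Rgs5, a regulator of G protein signalling that marks pericytes (chromosome 13, 81836304 to 81885518, ENSRNOG00000002730), stood at 148, 141, 102 and 43.4 CPM with PYY and at 37.0, 22.6, 24.4, 21.4 and 11.3 CPM with saline. All PYY libraries lay above all saline libraries, with A220 the closest to them (log2 fold change 2.22 ± 0.64, edgeR adjusted p 0.839). Acta2, which encodes smooth muscle actin, was at 89.3, 48.8, 149 and 47.4 CPM with PYY and 19.1, 28.9, 32.9, 26.4 and 39.6 CPM with saline. A219 was highest, and A216 and A220 lay just above saline A265 without overlap, at a log2 fold change of 1.51 ± 0.53. Myh11, the smooth muscle myosin, was at 1.21 ± 0.47, and its lowest PYY library, A216 at 42.9 CPM, lay within the saline range of 24.3 to 50.3 CPM. The adhesion molecule gene Mcam was at 1.11 ± 0.31 and Pdgfrb, the receptor through which endothelium recruits pericytes, at 1.098 ± 0.43. In the other direction stood only Des, the muscle filament gene shared with skeletal muscle, at -0.30 ± 0.60.

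**Figure D2:**
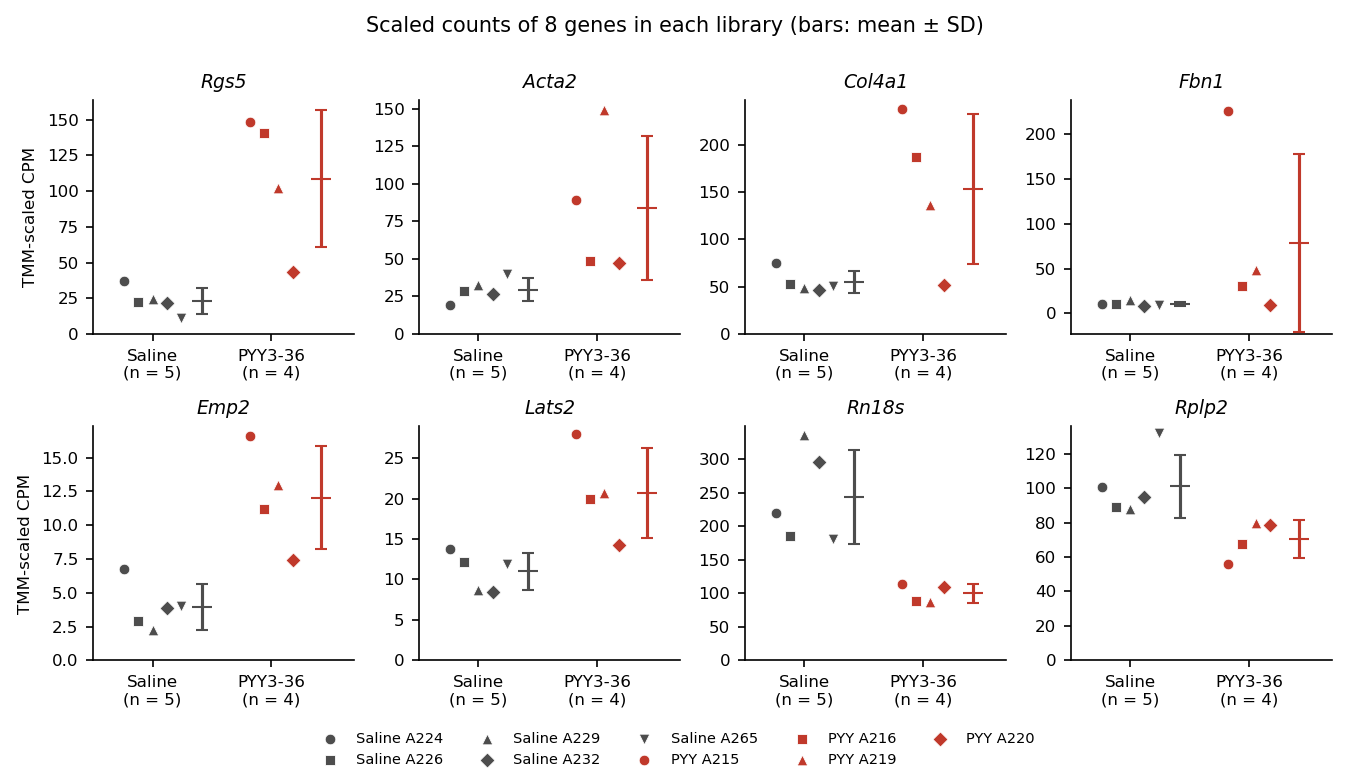
TMM-scaled CPM of 8 genes in each library, 5 saline (grey) and 4 PYY (red), with the mean and SD of each group beside the points. Rgs5, Acta2, Emp2 and Lats2 lie higher in every PYY library than in any saline library, Rn18s and Rplp2 lie lower in every one, and the Fbn1 mean is set by PYY A215, so its SD exceeds the mean.

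The sequence ahead of Acta2 is shown because CArG boxes, the sites of serum response factor, are the known shared feature of smooth muscle gene promoters. The 250 bases before its start site (RefSeq, GRCr8, chr1:241172504-241172753, minus strand) are given 5′ to 3′, with 2 CArG boxes in capitals.

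Acta2 upstream: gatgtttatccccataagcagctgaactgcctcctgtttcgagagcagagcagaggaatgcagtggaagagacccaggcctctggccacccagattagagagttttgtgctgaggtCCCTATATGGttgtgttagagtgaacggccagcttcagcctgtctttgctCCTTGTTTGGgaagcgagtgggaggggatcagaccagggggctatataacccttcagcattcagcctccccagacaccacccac

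The boxes begin 134 and 84 bases before the start site. They were searched on both strands as CC, 6 bases of which at most 1 is G or C, and GG. This motif occurs in the 250 bases before the start site in 7.97% of 27457 RefSeq promoters. Of the 8 mural genes with such a sequence, 1, Acta2, holds it. A match is a run of letters and not a measured site.

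Basement membrane genes, whose laminins and type IV collagens form the sheet under endothelium and around mural cells, were higher in 11 of 13. At an unadjusted p under 0.05 stood 10 of them, against 3.46% of all genes, the largest share of higher genes in any of the 43 lists. The median log2 fold change of the list was 1.04. Lamc1, the gamma chain of most laminins (chromosome 13, 65374372 to 65501492, ENSRNOG00000002680), stood at 93.3, 37.1, 59.8 and 46.4 CPM with PYY and 29.5, 31.3, 22.9, 32.0 and 27.6 CPM with saline. It was the member in which the groups did not overlap (log2 fold change 1.04 ± 0.27), as in 1.11% of all genes on the higher side. Col4a1 stood at 237, 187, 136 and 51.6 CPM with PYY and 74.8, 52.4, 49.0, 46.0 and 50.3 CPM with saline, and Col4a2 at 124, 85.9, 76.7 and 29.2 and 36.7, 30.2, 32.1, 26.6 and 23.1 CPM. In both, PYY A215, A216 and A219 lay above every saline library and A220 within the saline range, at log2 fold changes of 1.49 ± 0.39 and 1.41 ± 0.38. Lama4, the laminin chain of small vessels, was at 1.5001 ± 0.40. Lama2, the laminin chain of muscle fibres, was at -0.32 ± 0.61 and Col4a5 at -0.24 ± 0.65. Without PYY A215 the median of the list was 0.88.

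Col4a1 and Col4a2 lie head to head on chromosome 16, and their chains assemble into 1 collagen, so the bases between their start sites are shown (RefSeq, GRCr8, chr16:84885521-84885596, plus strand). Capitals mark the reverse complement of GGGCGG, the letters of a GC box, and CCAAT was searched too.

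Col4a1 and Col4a2 interval: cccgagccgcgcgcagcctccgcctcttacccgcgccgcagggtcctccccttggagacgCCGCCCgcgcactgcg

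The interval of 76 bases holds 1 GGGCGG, on the minus strand, and 0 CCAAT on either strand. Over the 250 bases before the start site, GGGCGG occurs in 32.4% of all promoters and CCAAT in 34.3%. That stretch is longer than the 76 bases, so these shares cannot be set against the interval. In the annotation of the deposited table (mRatBN7.2) the 2 genes overlap at their starts on opposite strands, and the labels do not say whether libraries kept strand, so reads there cannot be assigned between them.

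Endothelial genes were higher in 21 of 25, at a median log2 fold change of 0.71. At an unadjusted p under 0.05, 13 were higher, against 3.46% of all genes. The surface molecules accounted for 12 of these 13, with 15 of 16 higher (median 0.89), against 6 of 9 transcription factors (median 0.24). Pecam1, an adhesion molecule of all endothelium, stood at 134, 81.2, 137 and 38.4 CPM with PYY and 41.3, 37.4, 38.6, 53.9 and 43.8 CPM with saline. Again A220 lay within the saline range and the other 3 PYY libraries above it (log2 fold change 1.18 ± 0.40). Ptprb, a phosphatase of endothelial junctions, was at 1.12 ± 0.30, Robo4, a guidance receptor of endothelium, at 1.11 ± 0.35, and Cdh5, the junction cadherin, at 0.77 ± 0.32. Kdr, the main receptor of vascular endothelial growth factor, was at 0.49 ± 0.31. Tal1, a factor shared by endothelium and red cell precursors, was at -0.85 ± 0.63.

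Of 19 angiogenic factors and receptors 16 were higher (median log2 fold change 0.68), 7 at an unadjusted p under 0.05, against 3.46% of all genes. Angpt2, a ligand that loosens the contact of mural cells with endothelium, stood at 13.2, 8.61, 14.8 and 7.88 CPM with PYY and 5.88, 5.16, 6.41, 3.47 and 1.63 CPM with saline. Its groups did not overlap, as in 1.11% of all genes on the higher side, at a log2 fold change of 1.30 ± 0.37. Jag1, a Notch ligand, was at 0.97 ± 0.39, whereas Angpt1, made by mural cells to hold vessels stable, was at -0.43 ± 0.26 and Vegfa at -0.62 ± 0.61. Vegfa ran from 44.5 to 428 CPM among PYY libraries alone, lowest in A216 with its small muscle share and highest in A220. The 25 genes of vascular tone and nitric oxide held 20 that were higher (median 0.42). The synthase of endothelium, Nos3, which L-NAME blocks, stood at 15.6, 11.5, 16.9 and 10.2 CPM with PYY and 7.99, 12.1, 13.7, 5.72 and 13.1 CPM with saline, with overlapping groups (log2 fold change 0.37 ± 0.40). Cav1, the coat protein of caveolae, was at 0.94 ± 0.30, Ace, the angiotensin-converting enzyme, at 1.23 ± 0.38, and Ddah1, which breaks down natural inhibitors of the synthases, at -1.06 ± 0.55.

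**Figure D3:**
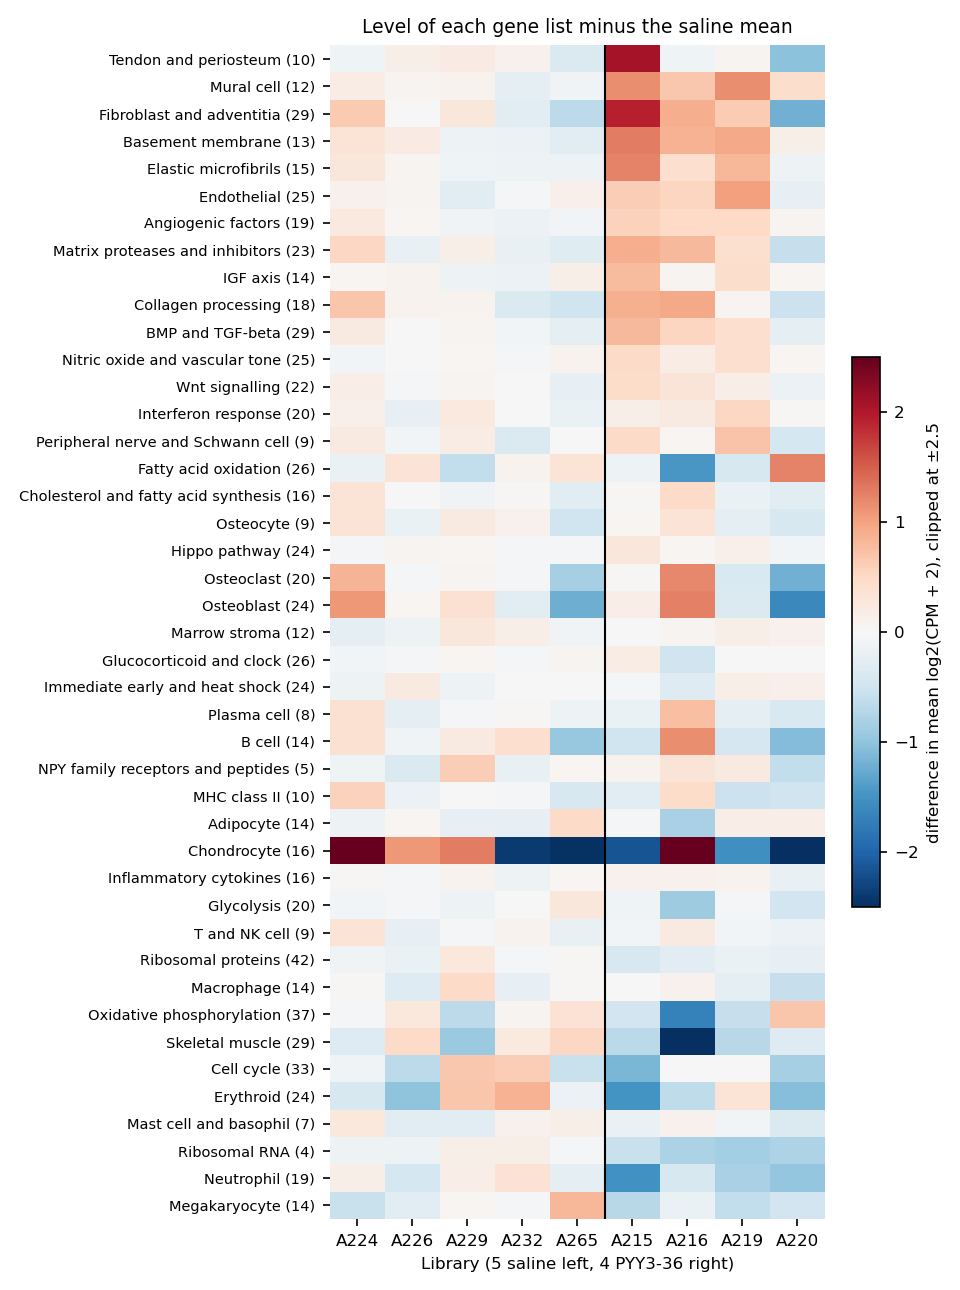
Level of each of the 43 gene lists in each library, averaged as log2(CPM + 2) over the tested genes (number in brackets) and set against the mean of the 5 saline libraries, with colours clipped at ±2.5. Mural cell genes are above the saline mean in all 4 PYY libraries, fibroblast and tendon genes are highest in A215 and below it in A220, and the cartilage row swings between libraries of both groups.

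Connective tissue genes were higher too, but with a wide spread among PYY libraries. Higher were 14 of 15 elastic microfibril genes (median log2 fold change 0.92), 26 of 29 fibroblast and adventitia genes (median 1.05) and 8 of 10 tendon and periosteum genes (median 1.34). Unadjusted p-values under 0.05 belonged to 5, 11 and 2 of them, against 3.46% of all genes. In 0 members of these 3 lists did the groups separate. Over all genes, the PYY libraries lay above all saline libraries in 1.11% and below in 0.825%. In the fibroblast list PYY A220 lay below every saline library and A215 and A216 above every one. Without PYY A215 the medians were 0.67 for microfibril genes, 0.54 for fibroblast genes and -0.39 for tendon genes.

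Fbn1, which encodes fibrillin-1, the backbone of microfibrils (chromosome 3, 112554925 to 112750889, ENSRNOG00000007302), had the smallest p of all genes. It stood at 225.8, 31.0, 48.2 and 9.13 CPM with PYY and at 10.2, 10.1, 14.6, 8.72 and 8.84 CPM with saline. A215 was far above the rest, A216 and A219 were above every saline library, and A220 lay within the saline range (log2 fold change 2.91 ± 0.58, edgeR adjusted p 0.396). Without PYY A215 its log2 fold change was 1.57 (edgeR adjusted p = 1.00000), and without A220 it was 3.28. Eln, the elastin gene, stood at 30.1, 14.95, 53.1 and 24.95 CPM with PYY and 15.05, 8.19, 5.08, 7.09 and 10.2 CPM with saline. Only A216 touched the saline range (log2 fold change 1.75 ± 0.49). Ltbp4, which binds latent TGF-beta to microfibrils, was at 1.38 ± 0.36, and Cd34, a surface marker of adventitial cells and endothelium, at 1.67 ± 0.48. Col3a1, the collagen of vessel walls and loose connective tissue, ran from 30.4 to 1602 CPM among PYY libraries and from 82.9 to 547 CPM with saline, at a log2 fold change of 1.33 ± 0.67. The tendon matrix gene Thbs4 stood at 257, 13.8, 25.3 and 8.20 CPM with PYY and 13.7, 24.7, 25.3, 31.0 and 18.5 CPM with saline, so that A215 alone lay above the saline range. Vcan, a matrix proteoglycan chosen after its values were seen, was called by DESeq2 (log2 fold change 3.77, adjusted p = 0.0407), as were Fbn1, Lats2, Prss23 and Rn18s.

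Among single genes outside these lists, Emp2, a membrane protein of epithelium and endothelium (chromosome 10, 5360073 to 5394733, ENSRNOG00000002664), had the second smallest p. It stood at 16.6, 11.2, 12.9 and 7.43 CPM with PYY and 6.75, 2.91, 2.27, 3.91 and 3.995 CPM with saline. The groups did not overlap, at a log2 fold change of 1.59 ± 0.32 (edgeR adjusted p 0.396). Prss23, a secreted serine protease, stood at 62.7, 34.7, 47.4 and 30.2 CPM with PYY and 26.6, 23.02, 20.4, 28.1 and 25.2 CPM with saline, and Cyyr1 at 40.5, 37.5, 44.5 and 19.1 and 14.8, 15.5, 11.7, 13.2 and 18.2 CPM. Both separated the groups, with log2 fold changes of 0.83 ± 0.20 and 1.27 ± 0.31, and in each the lowest PYY library was A220.

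Other genes of small p that separated the groups lay on both sides. Wdfy3, a scaffold of selective autophagy, stood at 22.1, 23.9, 22.5 and 17.9 CPM with PYY and 14.1, 16.1, 7.75, 11.8 and 9.75 CPM with saline (0.86 ± 0.23), and all 4 PYY libraries were within a narrow band above the saline range. Casp12, a caspase of the endoplasmic reticulum, was at 6.78, 4.78, 3.70 and 3.92 CPM with PYY and 2.16, 1.97, 1.67, 1.56 and 2.18 CPM with saline (1.33 ± 0.35). Prima1, the membrane anchor of acetylcholinesterase in nerve and muscle, was at 0.727, 0.244, 0.857 and 0.475 CPM with PYY and 6.55, 2.62, 7.28, 1.67 and 3.69 CPM with saline (-2.91 ± 0.98), so that each PYY library lay under each saline library, as it did for Rbm33, an RNA-binding protein gene (-0.57 ± 0.19). Ecscr, an endothelial surface protein gene, was at 2.13 ± 0.53, but its level in A220, 1.703 CPM, lay within the saline range of 0.398 to 2.34 CPM. Syne2 (1.24 ± 0.31) and Galnt15 (2.01 ± 0.53) were further genes of small p on the higher side, and Memo1 (-0.81 ± 0.27), Eloc (-0.74 ± 0.25), Rpf1 (-0.70 ± 0.24), the ribosomal protein-like gene LOC100361933 (-1.04 ± 0.32) and the mitochondrial transfer RNA gene AY172581.7 (-1.31 ± 0.43) on the lower side.

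In the Hippo pathway, a kinase chain that holds back growth by keeping the co-activators Yap1 and Taz out of the nucleus, members lay on both sides. Of 24 members 13 were higher and 11 lower (median log2 fold change 0.11), with 4 higher at an unadjusted p under 0.05 (against 3.46% of all genes), namely Lats2, Crim1 and, chosen after their values were seen, Lats1 and Axl. Lats2, 1 of the 2 kinases that act directly on the co-activators (chromosome 15, 31825092 to 31877220, ENSRNOG00000056343), stood at 27.9, 19.9, 20.7 and 14.3 CPM with PYY and 13.8, 12.1, 8.75, 8.40 and 11.9 CPM with saline. Its groups did not overlap, but A220 lay only just above saline A224 (log2 fold change 0.91 ± 0.22, edgeR adjusted p 0.839). Of 8 transcriptional targets 5 were higher. Crim1 (0.86) and Axl (0.94, or 0.34 without PYY A215) were the 2 targets at an unadjusted p under 0.05, against 3.46% of all genes. The targets Ccn1 (0.26 ± 0.24), Ccn2 (-0.35 ± 0.49) and Ankrd1 (-0.96 ± 0.71) overlapped between groups.

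Bone cell lists lay close to 0 in the comparison. Of 24 osteoblast genes 17 were higher and 7 lower (median log2 fold change 0.10), of 9 osteocyte genes 6 were higher (0.11) and of 20 osteoclast genes 14 were higher (0.11). Without PYY A216 these medians were -0.45, -0.42 and -0.73. The highest with 1 library left out were 0.48 and 0.65 for osteoblast and osteoclast genes without saline A224. For osteocyte genes the highest was 0.31, without PYY A220. Col1a1, the main collagen of bone matrix, stood at 1733, 2962, 610.3 and 62.1 CPM with PYY and 2934, 888, 897, 645 and 138 CPM with saline. Its range among libraries of either group was far wider than the difference between groups (log2 fold change 0.29 ± 0.86). Bglap, which encodes osteocalcin, was at 0.11 ± 0.66, the mineralization enzyme gene Phospho1 at -0.58 ± 0.38 and the bone sialoprotein gene Ibsp at -0.45 ± 0.82. Of 6 osteoblast genes of mineralization, 5 were higher (median 0.11). The osteocyte genes of matrix mineralization Dmp1 and Mepe were among the 3 lower members of their list, at -0.77 ± 0.55 and -1.24 ± 0.92. The osteocyte gene Sost was among the higher members, at 0.11 ± 1.02.

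Among osteoclast genes, the resorption genes Ctsk (0.16 ± 0.81) and Acp5 (-0.23 ± 0.85) overlapped between groups. Nfatc1, the master transcription factor of osteoclast formation, which endothelial and lymphoid cells also express, stood at 11.5, 15.4, 10.3 and 11.2 CPM with PYY and 7.16, 7.70, 7.28, 8.40 and 5.81 CPM with saline. It was the 1 of 20 members in which all PYY libraries lay above all saline libraries, as in 1.11% of all genes, at a log2 fold change of 0.73 ± 0.24. Calcr, the calcitonin receptor of mature osteoclasts, was at -2.32 ± 1.45, and the osteoclast-activating ligand Tnfsf11 at 1.30 ± 1.415 and its decoy receptor Tnfrsf11b at 0.54 ± 1.16. Of these genes Nfatc1 alone stood at an unadjusted p under 0.05.

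Cartilage genes varied far more between libraries than between groups. Col2a1, the collagen of cartilage, stood at 1.69, 3868, 80.2 and 6.93 CPM with PYY and 2834, 958, 1322, 28.3 and 13.1 CPM with saline. PYY A216 and saline A224, A226 and A229 were high and the other 5 libraries low, and the same 4 libraries were the highest in Acan, the main cartilage proteoglycan, and Col10a1, a marker of hypertrophic cartilage. Of 16 such genes 13 were lower (median log2 fold change -0.11). The median was -4.28 without PYY A216 and 0.77 without saline A224.

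Signals that act on bone cells were mostly higher by small amounts. Of 29 genes of the BMP and TGF-beta pathways 27 were higher (median log2 fold change 0.53), of 22 Wnt genes 19 (0.32), of 14 genes of the IGF axis 10 (0.56), of 23 matrix proteases and their inhibitors 20 (0.62) and of 18 collagen processing genes 17 (0.55). Unadjusted p-values lay under 0.05 for 4, 2, 4, 3 and 2 of them, all higher, against 3.46% of all genes. Single libraries set part of these values: without PYY A216 the collagen processing median was 0.17, and without PYY A215 the Wnt median was 0.20 and the IGF median 0.36. Dkk3, a secreted relative of the Wnt inhibitors, was at 1.85 ± 0.74. Igfbp7 and Igfbp5, binding proteins of IGF, were at 1.30 ± 0.40 and 0.90 ± 0.32, and Igf1 itself at 0.21 ± 0.55. Mmp2, which cleaves type IV collagen, was at 1.14 ± 0.47, the inhibitor genes Timp3 and Reck at 1.19 ± 0.45 and 1.49 ± 0.58, and the collagen receptor gene Ddr2 at 0.75 ± 0.31. Without PYY A215, Dkk3 was at 0.57, Reck at 0.67 and Mmp2 at 0.71.

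Blood-forming marrow genes were mostly lower with PYY, but the list levels overlapped between groups. Below all 5 saline libraries lay 2 of the 4 PYY libraries for erythroid genes, 2 for megakaryocyte genes and 3 for neutrophil genes. Erythroid genes were lower in 23 of 24 (median log2 fold change -0.78), megakaryocyte genes in 13 of 14 (-1.36) and neutrophil genes in 19 of 19 (-1.30). At an unadjusted p under 0.05 stood 0, 3 and 0 of these, against 1.38% of all genes. The 3 were Treml1, Pf4 and, chosen after its values were seen, Clec1b. Treml1, a receptor of platelet granules, stood at 0.116, 1.32, 0.0591 and 0 CPM with PYY and 1.36, 2.46, 4.41, 3.98 and 7.26 CPM with saline. All PYY libraries lay below all saline libraries, at low levels (log2 fold change -3.41 ± 1.16). Ppbp, a platelet chemokine, separated the groups too, with A220 at 1.53 CPM just under saline A224 at 1.54 CPM (-2.1998 ± 1.17), and Pf4 did not (-1.74 ± 0.76).

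Camp, an antimicrobial peptide of neutrophil granules, stood at 1.54, 13.5, 6.68 and 8.20 CPM with PYY and 26.4, 20.4, 36.1, 39.6 and 14.5 CPM with saline. Its groups did not overlap (log2 fold change -1.87 ± 0.94). S100a8, a more abundant product of the same cells, was at -1.15 ± 0.78 and the granule enzyme Mpo at -1.30 ± 0.85, both with overlapping groups. The erythroid genes Gata1, the regulator of red cell and platelet precursors, and Alas2, the first enzyme of haem synthesis, were at -1.14 ± 0.64 and -0.91 ± 0.74. Haemoglobin genes took 1.52 to 7.55% of the non-mitochondrial counts with PYY and 1.90 to 11.1% with saline, and the part of marrow content in these values was not tested. The erythroid median was -0.44 without PYY A215, the megakaryocyte median -0.69 without saline A265, and the neutrophil median was -1.58 to -0.91 when 1 library at a time was left out. Macrophage genes were lower in 9 of 14 (median -0.32), and B cell, plasma cell, T cell and MHC class II lists had medians between -0.22 and 0.05. Without PYY A216 these were -1.78 for B cell, -0.33 for plasma cell, -1.04 for T and NK cell and -1.03 for MHC class II genes. The highest values with 1 library left out were 0.44 (B cell), 0.81 (plasma cell), 0.81 (T and NK cell) and 0.15 (MHC class II).

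Genes of DNA replication and mitosis lay lower in 32 of 33 cases (median log2 fold change -0.69, or -0.37 without PYY A215). Mcm4, a subunit of the replication helicase, stood at 6.23, 10.3, 10.97 and 7.86 CPM with PYY and 11.02, 11.6, 19.6, 24.7 and 13.0 CPM with saline. The groups did not overlap, by a margin of 0.1 CPM or less between A219 and A224 (log2 fold change -0.85 ± 0.43). Mki67, a marker of dividing cells, was at -1.15 ± 0.82 and Top2a, which untangles DNA in mitosis, at -0.78 ± 0.69. Saline A229 and A232 had the highest Mki67 levels, at 150.1 and 216.3 CPM, and also the highest haemoglobin shares of their group, 11.1 and 7.80%.

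Ribosomal RNA and ribosomal protein genes were the 2 lists of 43 whose level lay below all 5 saline libraries in each of the 4 PYY libraries. All 4 ribosomal RNA genes and 41 of 42 ribosomal protein genes were lower, at median log2 fold changes of -1.09 and -0.26. Rn18s, the 18S RNA of the small subunit, which lies on an unplaced scaffold, stood at 114, 89.1, 87.0 and 109.8 CPM with PYY and 221, 185, 336, 296 and 180.4 CPM with saline. The groups did not overlap (log2 fold change -1.29 ± 0.30, edgeR adjusted p 0.839). Rn5-8s was at 0.175, 0.0349, 0 and 0.277 CPM with PYY and 1.23, 2.21, 1.07, 2.61 and 1.94 CPM with saline, again without overlap (-3.80 ± 1.03). These RNAs carry no poly(A) tail and the libraries were made from poly(A) RNA, so their counts also measure what the selection left in. Ribosomal RNA took 0.0456% ± 0.0093 (SD, n = 4) of the non-mitochondrial counts with PYY and 0.0934% ± 0.0262 (n = 5) with saline (exact permutation p = 0.0159, adjusted 0.0952). As a share of all counts, mitochondrial ones included, an alternative chosen after seeing the data, it was 0.0163% ± 0.00371 (n = 4) with PYY and 0.0228% ± 0.00841 (n = 5) with saline (exact permutation p = 0.238). On that scale the groups overlapped, from 0.0130 to 0.0213% with PYY and from 0.0120 to 0.0321% with saline, and the mitochondrial share itself was lower with PYY.

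Among ribosomal protein genes the groups did not overlap in 9 of 42, against 0.825% of all genes. These genes are short, the 1529 shortest genes tested had a median of -0.27, and subtracting the median of genes of like length left the list at -0.10. Rplp2, an acidic protein of the ribosomal stalk, stood at 56.2, 67.8, 80.0 and 78.4 CPM with PYY and 101, 89.3, 87.7, 95.1 and 132 CPM with saline (-0.52 ± 0.21), and Rpl37 at -0.43 ± 0.22. Their near-identical copies across the genome, such as Rpl38-ps9 (-0.74 ± 0.21) and Rpl37l1 (-0.78 ± 0.21), can share reads, so these counts are uncertain. Among the single genes of smallest p on the lower side, Imp4, which processes the precursor of 18S RNA, stood at 12.6, 7.01, 8.99 and 12.9 CPM with PYY and 17.0, 17.5, 26.2, 16.04 and 15.4 CPM with saline (-0.82 ± 0.23). The predicted gene RGD1564606 had the smallest p of all lower genes, at 1.43, 1.74, 1.98 and 2.97 CPM with PYY and 8.47, 7.37, 7.75, 4.78 and 11.3 CPM with saline (-1.96 ± 0.45). Klf5, a transcription factor of smooth muscle and epithelium, was at -1.14 ± 0.35 and the DNA repair enzyme Apex1 at -0.61 ± 0.20. In Rplp2, Rpl37, Imp4, RGD1564606, Klf5 and Apex1 every PYY library lay below every saline library.

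Gene length moved with the comparison. When the tested genes were split by the length the authors' table gives, the shortest of 10 classes (up to 1191 bases) had a median log2 fold change of -0.27 and the longest (from 6568 bases) one of 0.12. The share of genes higher with PYY went from 31.9% to 61.6% over the same classes. PYY A215, A216 and A219 showed this slope and A220 hardly did, at -0.078 for the shortest and 0.017 for the longest class. After the median of each length class was subtracted, an alternative chosen after seeing the data, the list medians were 1.11 for mural, 0.92 for basement membrane, 1.04 for fibroblast, 0.72 for endothelial and -1.08 for ribosomal RNA genes.

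**Figure D4:**
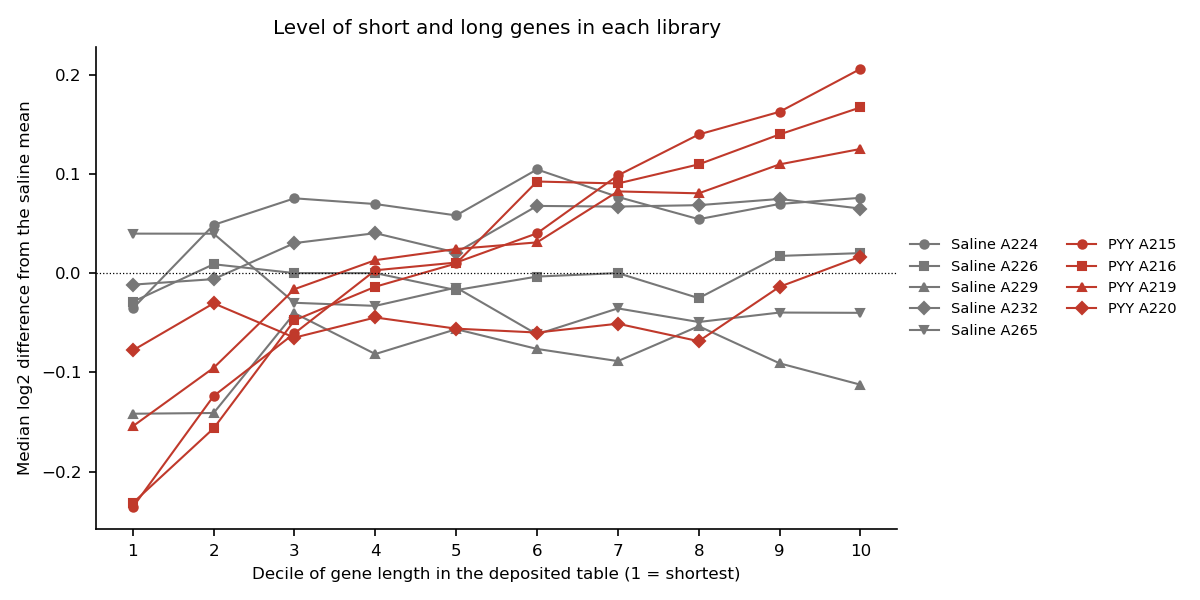
Median log2 difference of each library from the saline mean (y axis) over the genes of each length decile (x axis, 1 = shortest), with 5 saline libraries in grey and 4 PYY libraries in red. PYY A215, A216 and A219 run from below -0.15 in the shortest decile to above 0.12 in the longest, and no saline library does.

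Muscle and energy genes varied widely among the PYY libraries. Of 29 skeletal muscle genes 22 were lower (median log2 fold change -0.52), with all 9 fast-fibre genes lower (-0.92) and all 7 slow-fibre genes higher (0.30). Without PYY A216 the median of all 29 was -0.16. Myh7, the slow myosin, stood at 259, 9.80, 55.0 and 4187 CPM with PYY and 233, 2153, 130.2, 1535 and 712 CPM with saline, and Myh4, a fast myosin, at 2658, 574, 5528 and 98.2 and 3738, 3391, 3368, 3756 and 5458 CPM. PYY A220 was highest in the slow and lowest in the fast myosin, and A216 was low in both. Of 37 genes of oxidative phosphorylation 36 were lower (median -0.35, or 0.28 once the muscle level was a covariate, -0.058 without PYY A216 and -0.90 without A220). Fatty acid oxidation genes were higher in 21 of 26 (0.20), but their median was -0.71 without PYY A220. Pdk4, which turns muscle from glucose to fat, stood at 318.4, 26.3, 134 and 832 CPM with PYY and 142, 333, 154, 113 and 496 CPM with saline, again highest in A220. Slc2a1, the glucose transporter of red cells and endothelium, was at 1.41 ± 0.63. It was the 1 of 20 glycolysis genes at an unadjusted p under 0.05, near the 3.46% of all genes on the higher side.

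Of 20 genes that interferons induce, 16 were higher (median log2 fold change 0.26). Rtp4 stood at 3.78, 4.15, 2.16 and 3.80 CPM with PYY and 1.80, 0.983, 0.935, 0.905 and 1.33 CPM with saline. It was 1 of 2 members (against 1.11% of all genes) in which all PYY libraries lay above saline (1.54 ± 0.59), the other being Usp18, chosen after its values were seen. Of 16 cytokine genes 7 were higher. Cxcl10, a chemokine that interferons induce, was listed at 0.0582, 0.453, 0.177 and 0.139 CPM with PYY and at 0 in all 5 saline libraries. Il33, an alarm cytokine of endothelium and fibroblasts, was at 1.04 ± 0.46, and the adipocyte hormone gene Adipoq was at -0.94 ± 0.72. Of 15 immediate early genes 10 were higher (median 0.26, Egr1 0.62 ± 0.30) and of 9 heat shock genes 6 were lower (median -0.30, Hsph1 -0.67 ± 0.29). Glucocorticoid and clock genes had a median of 0.09, with the clock output gene Ciart at -2.31 ± 0.90 and the glucocorticoid target gene Klf9 at 0.70 ± 0.35.

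The same peptide was also given on top of semaglutide, and combination minus semaglutide shares no library with PYY minus saline. Of its genes 0 passed the edgeR test (0% called, smallest adjusted p 0.186; 609 higher, 3.99%, and 254 lower, 1.66%, at an unadjusted p under 0.05), while DESeq2 called 12. The split of combination minus semaglutide leaned the other way with limma voom, at 308 higher and 722 lower. It did so too with the muscle level as a covariate, at 225 and 396. In the main edgeR fit, of the 529 genes higher with PYY at an unadjusted p under 0.05, 362 (68.4%) also lay above 0 there, where 53.7% of all genes did. Their median log2 fold change was 0.26 there, against 1.14 in PYY minus saline. Of the 211 lower genes, 99 (46.9%) also lay below 0, where 46.3% of all genes did. Over all genes tested, the log2 fold changes of the 2 comparisons had a Pearson correlation of only 0.027. The difference between the 2 comparisons was itself tested, and 0 genes passed (smallest adjusted p 0.0973, for Cenpm; 700 genes, 4.58%, at an unadjusted p under 0.05), while DESeq2 called 3.

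Lists of the vessel wall had medians above 0 in both comparisons, as did 22 of the 43 lists, and 34 of the 43 lay above 0 in combination minus semaglutide. Median log2 fold changes in combination minus semaglutide were 0.75 for mural, 0.79 for fibroblast, 0.59 for elastic microfibril, 0.43 for endothelial and 0.34 for basement membrane genes, of which 7 of 13 were higher. Rgs5 was at 1.34 ± 0.60, Acta2 at 1.07 ± 0.50, Emp2 at 0.69 ± 0.31 and Fbn1 at 0.72 ± 0.53 in that comparison. Lamc1 was at -0.34 ± 0.26 there, and the difference had an unadjusted edgeR p of 0.0011 that did not pass (adjusted 0.999). Lists of the marrow were on opposite sides, with medians of 1.01 for erythroid, 0.97 for megakaryocyte, 0.77 for neutrophil and 1.19 for cell cycle genes against -0.78, -1.36, -1.30 and -0.69 for PYY minus saline. At an unadjusted p under 0.05 for the difference stood 9 of 24 erythroid, 5 of 14 megakaryocyte, 1 of 19 neutrophil and 15 of 33 cell cycle genes, against 4.58% of all genes. For ribosomal RNA genes the median was -0.14 there, with 1 of 4 higher, and Rn18s was at -0.33 ± 0.28. Genes of the shortest class had a median of 0.06 and those of the longest one of 0.06, so the slope with gene length was not seen in that comparison.

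**Figure D5:**
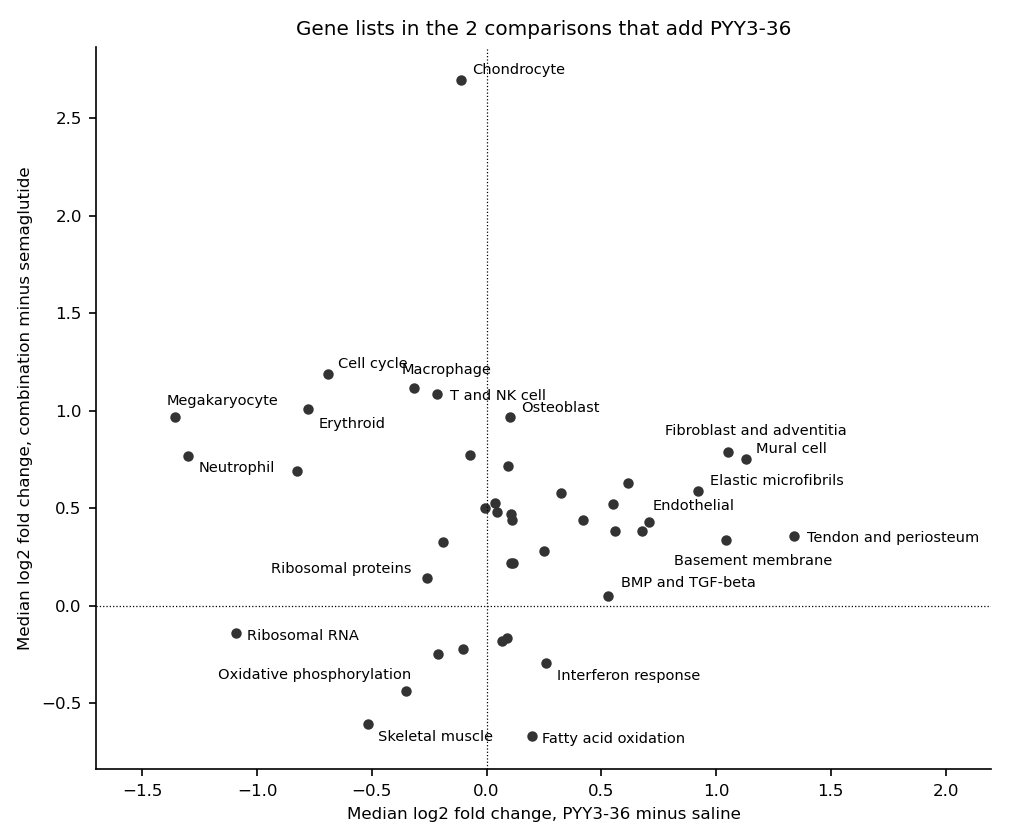
Median log2 fold change of each of the 43 gene lists (1 point each) in PYY minus saline (x axis) and in combination minus semaglutide (y axis). Mural, fibroblast and microfibril lists lie to the upper right, while erythroid, megakaryocyte, neutrophil and cell cycle lists lie to the upper left.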

How the data were processed

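Poly(A) RNA of femora was sequenced in 23 libraries, of which 9 enter the comparison. The deposited table gives raw read counts and FPKM for 30562 genes, of which 10661 have no count in any library. The submitters' processing notes name the build mRatBN7.2 and the tool DESeq2 1.42.0, and for aligner, counter and strand setting the entry is not given in the sources used here. FPKM values deposited by the authors equal the counts divided by gene length and a depth proportional to the DESeq2 size factor, and were not tested.

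Counts entered edgeR 4.0.16 (R 4.3.3) and its quasi-likelihood test, with TMM scaling, the low-count filter filterByExpr (15271 genes left) and 1 mean per group over 23 libraries, which leaves 18 residual degrees of freedom. Adjusted p-values are Benjamini-Hochberg over all genes tested, the SE is the log2 fold change divided by the square root of its F, and CPM are TMM-scaled. DESeq2 1.42.0, limma 3.58.1 voom, other filters and scalings and the removal of each library were alternatives. List levels are means of log2(CPM + 2), and figures were drawn with Python 3.11.15 and matplotlib 3.10.9.

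Genes named in the text were taken from the 15 genes of smallest p in each direction (mean CPM of at least 1), key genes marked in each list, the 2 members of each list with the largest ratio of change to SE in each direction, and the 8 genes of smallest p in each direction whose groups do not overlap (mean CPM of at least 5). Members and lists were chosen with earlier results of these data known. Sequences are from RefSeq (GRCr8), while gene coordinates are of mRatBN7.2.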

Additional observations from a re-analysis of the deposited data

Results flagged for a closer look

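In 29 of 338 groups of values (the 4 PYY or the 5 saline libraries for 1 gene, list or makeup measure) the extreme library lay apart, its gap to the next library divided by the range exceeding Dixon's 95% limit for 4 or 5 libraries. Chance flags about 1 in 20 groups of normally distributed values. Whether these values are so distributed was not tested, and the genes checked were those named in the text. That rate is therefore no measure for these groups. PYY A215 was high in Ddr2 (48.3 CPM, others 25.9 to 29.2), Dkk3 (69.2 CPM, others 5.07 to 15.4), Thbs4 (257 CPM, others 8.20 to 25.3) and Vcan (173 CPM, others 3.49 to 14.1). PYY A215 was low in Ppbp (0.378 CPM, others 1.36 to 1.53). PYY A216 was high in Col2a1 (3868 CPM, others 1.69 to 80.2), Ibsp (478 CPM, others 17.0 to 72.0), Ms4a2 (1.499 CPM, others 0.277 to 0.407) and Treml1 (1.32 CPM, others 0 to 0.116). PYY A220 was high in Myh7 (4187 CPM, others 9.80 to 259). PYY A220 was low in Jag1 (11.4 CPM, others 22.9 to 24.4) and Kdr (9.57 CPM, others 23.7 to 24.4). Saline A224 was high in Col1a1 (2934 CPM, others 138 to 897), Col4a1 (74.8 CPM, others 46.0 to 52.4) and Mcam (32.3 CPM, others 15.5 to 20.2). Saline A224 was low in Lepr (0.924 CPM, others 3.73 to 4.78). Saline A229 was high in Cenpm (7.68 CPM, others 0.334 to 1.39), Cxcl12 (306 CPM, others 115 to 170.2), Ddr2 (29.9995 CPM, others 14.7 to 18.7), Fbn1 (14.6 CPM, others 8.72 to 10.2) and Imp4 (26.2 CPM, others 15.4 to 17.5). Saline A232 was high in Klf5 (14.3 CPM, others 4.36 to 7.09). Saline A265 was high in AY172581.7 (42.6 CPM, others 7.34 to 17.0) and Myh4 (5458 CPM, others 3368 to 3756). PYY A220 had the highest total, 37.2 M counts, against 22.5 to 24.8 M in the others. The mean log2 level of the angiogenic factors list was 3.66 in PYY A220 and 4.09 to 4.17 in the other PYY libraries. The mean log2 level of the inflammatory cytokines list was 1.75 in PYY A220 and 2.02 to 2.03 in the other PYY libraries. The mean log2 level of the skeletal muscle list was 6.30 in PYY A216 and 9.06 to 9.43 in the other PYY libraries. The mean log2 level of the glycolysis list was 5.63 in saline A265 and 5.21 to 5.33 in the other saline libraries.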

How the results depend on the processing

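Of 15271 genes, edgeR called 0 for PYY minus saline under every setting run, except 1 (Fbn1) without PYY A220, so leaving out 1 library gave 0 to 1 calls. DESeq2 called 5 (4 higher, 1 lower), as well as 12 for combination minus semaglutide and 3 for the difference, and limma voom called 0 in all 3. At an unadjusted p under 0.05 the counts ran from 514 without PYY A215 to 1343 without PYY A220, and the muscle level as a covariate, added after seeing the data together with the centring on gene length, gave 1331 (687 higher and 644 lower, against 529 and 211). Of 773 alternative list medians, 118 moved by more than the SD of the saline libraries, and 17 of 43 lists changed sign when 1 library was left out (bone, cartilage, tendon, B cell and fatty acid oxidation lists among them). Taken over all counts, the muscle and haemoglobin shares differed by 0.783 and 0.00259 percentage points (PYY minus saline), against -3.12 and -2.02 of the non-mitochondrial counts. Low counts limit the receptor genes, Treml1, Rn5-8s and Cxcl10. No paired analysis was possible because the numbers in the titles differ between all libraries and pair none. Of the named genes, Fbn1, Lats2, Prss23, Rn18s and Vcan passed with DESeq2, and the cause was not tested for these or for the changes of sign below. With limma voom, the log2 fold change had the opposite sign for Bglap (-0.25), Ctsk (-0.27), Igf1 (-0.10), Myh7 (-2.06), Pdk4 (-0.39), Tnfrsf11b (-1.32) and Tnfsf11 (-0.11). With the muscle level as a covariate, the log2 fold change had the opposite sign for Bglap (-0.76), Col1a1 (-0.79), Col4a5 (0.24), Ctsk (-1.12), Des (0.38), Igf1 (-0.26), Lama2 (0.00046), Myh4 (0.29), Tnfrsf11b (-1.01), Tnfsf11 (-0.036) and Vegfa (0.15). With DESeq2 size factors, the log2 fold change had the opposite sign for Dpp4 (0.021). With the 9 libraries alone, the log2 fold change had the opposite sign for Col2a1 (0.0086), Cxcl12 (0.033) and Dpp4 (0.045). With DESeq2, the log2 fold change had the opposite sign for Dpp4 (0.022). With mitochondrial genes left out, the log2 fold change had the opposite sign for Dpp4 (0.0056). With muscle genes left out, the log2 fold change had the opposite sign for Col2a1 (0.0087), Cxcl12 (0.040) and Dpp4 (0.052). Leaving out 1 library at a time changed the sign for 16 genes, whose log2 fold changes ran, for Acp5 from -1.53 to 0.43, Bglap from -0.44 to 0.48, Col1a1 from -0.46 to 1.06, Col2a1 from -5.12 to 0.77, Col4a5 from -1.28 to 0.095, Ctsk from -1.13 to 0.70, Cxcl12 from -0.27 to 0.27, Des from -0.67 to 0.052, Dpp4 from -0.57 to 0.30, Ibsp from -2.32 to 0.075, Igf1 from -0.18 to 0.56, Lama2 from -0.72 to 0.057, Myh7 from -3.14 to 0.79, Pdk4 from -0.63 to 0.82, Thbs4 from -0.44 to 2.13 and Tnfrsf11b from -0.83 to 1.01.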

Other observations

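Nerve sheath genes were higher with PYY in 8 of 9 (median log2 fold change 0.25). The myelin gene Pmp22, which fibroblasts and endothelium also express, was at 1.45 ± 0.43. It was the 1 member at an unadjusted edgeR p under 0.05, against 3.46% of all genes on the higher side. Mast cell and basophil genes were lower in 6 of 7 (median -0.82), among them Ms4a2, a chain of the IgE receptor, at -1.09 ± 1.04. Marrow stroma genes were higher in 8 of 12 (median 0.09), with the niche chemokine gene Cxcl12 at -0.041 ± 0.45 and the leptin receptor gene Lepr at 0.39 ± 0.59. Adipocyte genes were higher in 6 of 14 (median -0.10), and genes of cholesterol and fatty acid synthesis in 9 of 16 (median 0.12).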
